A study of Mus musculus with 6 samples.

Results

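The mitochondrial genome of the mouse carries 37 genes, and all 37 were found by their symbols, which start with mt-, among the 40428 features of an RNA sequencing count table. They are 13 protein genes, 2 ribosomal RNAs and 22 transfer RNAs, reported here as separate classes. The libraries were made from whole white adipose tissue of the subcutaneous depot, taken from C57BL/6J mice that were housed at room temperature and ate regular chow. In the 3 ANKO mice, Nampt had been deleted by crossing floxed Nampt to a Cre transgene driven by the adiponectin promoter, which is active in adipocytes. The 3 control mice carried the floxed alleles, and their labels name no Cre. Age and sex are not given in the labels, and each library is 1 animal. Nampt makes nicotinamide mononucleotide, the precursor from which most mammalian NAD is rebuilt, and NADH is the electron donor of the respiratory chain to which the mitochondrial protein genes contribute.

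Mitochondrial DNA is transcribed from both strands into long precursors that cover nearly the whole circle, and the transfer RNAs between the other genes mark the places where the precursors are cut. The genes have no introns and are packed end to end, with a few overlapping. The protein genes all encode membrane subunits of oxidative phosphorylation: complex I (the mt-Nd genes), complex III (mt-Cytb), complex IV (the mt-Co genes) and the ATP synthase (mt-Atp6 and mt-Atp8), and the ribosomal and transfer RNAs serve the mitochondrion's own protein synthesis. White adipocytes hold fewer mitochondria than brown ones, where uncoupled respiration gives heat.

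The libraries held 20419821 to 23860596 counts in ANKO mice and 19748962 to 22588171 in controls. Nampt had 48.6, 50.2 and 47.0 CPM (counts relative to library size, scaled by the trimmed mean of M values, TMM) in ANKO mice, against 83.6, 93.0 and 87.0 in controls. The groups did not overlap, and Nampt fell (log2 fold change -0.85, SE 0.078, edgeR adjusted p = 0.00416). Over all 19272 features tested, 1.59% were called at an adjusted p under 0.05, with 0.488% higher and 1.1% lower in ANKO mice. Without ANKO 1 the balance turned, with 107 features higher and 93 lower. The 8 adipocyte markers took 0.388% to 0.616% of counts in ANKO mice and 0.646% to 1.05% in controls, and 2 of them, Adipoq and Plin1, fell. In whole tissue, fewer cells of a type and less RNA per cell cannot be told apart. The 19 skeletal muscle markers, from a tissue rich in mitochondria, took 2.04%, 0.346% and 0.0129% of counts in ANKO mice 1, 2 and 3 and 0.683%, 0.176% and 1.02% in controls 1, 2 and 3. These muscle shares overlapped between the groups and varied widely within each.

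The 37 genes together took 2.64%, 3.65% and 3.18% of all counts in ANKO mice, against 2.74%, 2.74% and 3.50% in controls, or 3.16 ± 0.509% and 2.99 ± 0.437% (SD, n = 3 each). The groups overlapped, and the difference of 0.16 percentage points was smaller than either SD. Nearly all of it was messenger RNA: the 13 protein genes took 3.09 ± 0.521% in ANKO mice and 2.93 ± 0.443% in controls. The ribosomal RNAs took 0.0606 ± 0.0185% in ANKO mice and 0.0593 ± 0.0206% in controls, and the transfer RNAs 0.0021 ± 0.00045% and 0.0024 ± 0.0007%. ANKO 1, the library with the largest muscle share, had the smallest mitochondrial share of the 6. Control 3, with the largest muscle share of the controls, had the largest mitochondrial share of the controls. The part of muscle RNA in these values was not tested beyond a covariate, under which no mitochondrial gene had an unadjusted p under 0.05. With it, log2 fold changes of mt-Nd1, mt-Nd2 and mt-Nd3 were 0.43, 0.47 and 0.55, against 0.40, 0.45 and 0.58 without it. Their SEs were 0.20, 0.21 and 0.26 with the covariate, against 0.17, 0.18 and 0.23 without it.

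No mitochondrial transcript was called in either direction. All 13 protein genes, both ribosomal RNAs and 2 of the 22 transfer RNAs passed the filter on low counts, and 0 of these 17 had an adjusted p under 0.05 by edgeR, against 1.59% of all features. DESeq2 and limma-voom also called 0. At an unadjusted p under 0.05 edgeR gave 3 of the 17, DESeq2 3 and limma-voom 2, beside 12.9% of all features by edgeR (6.03% higher in ANKO mice). None of the 17 had groups that did not overlap, against 19.4% of all features (9.19% higher and 10.2% lower in ANKO mice). The median log2 fold change of the 13 protein genes was 0.18, against 0.00068 for all features tested, and 10 of the 13 had a value above 0, against 50.1% of all features. The 13 genes come from long precursors and moved together by library, so they are not 13 separate observations. Without ANKO 2, the log2 fold changes of mt-Atp8, mt-Co3, mt-Nd4l, mt-Nd4 and mt-Nd5 also lay below 0. The median SE of the 13 protein genes was 0.207, and that of all features 0.186.

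Complex I takes electrons from NADH, and 7 of its subunits are mitochondrial genes. The 3 genes with an unadjusted p under 0.05 were all among them, but 12.9% of all features passed this threshold by edgeR. The other complex I genes did not share the rise to this extent: log2 fold changes were 0.014 for mt-Nd4, 0.17 for mt-Nd4l, 0.097 for mt-Nd5 and -0.22 for mt-Nd6. mt-Nd1, a membrane subunit next to the quinone site (chrM:2751-3707 of GRCm38, forward strand), had 3607, 5164 and 3929 CPM in ANKO mice, against 3204, 2772 and 3638 in controls. The lowest ANKO library lay just below the highest control. The log2 fold change was 0.40 (95% interval 0.0030 to 0.80, SE 0.173, edgeR unadjusted p = 0.0487, adjusted p = 0.383). mt-Nd2, a subunit of the proton-pumping arm (chrM:3914-4951, forward strand), had 2473, 3710 and 2806 CPM in ANKO mice, against 2140, 1903 and 2522 in controls. Again 1 ANKO library fell within the control range, and the log2 fold change was 0.45 (95% interval 0.037 to 0.87, SE 0.181, edgeR unadjusted p = 0.0362). Its adjusted p of 0.338 was the smallest of the 17.

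mt-Nd3, a small subunit at the joint between the arms of complex I (chrM:9459-9806, forward strand), had 21.5, 41.3 and 30.3 CPM in ANKO mice, against 20.01, 18.5 and 23.9 in controls. Only ANKO 1 lay within the control range. Its log2 fold change of 0.58 was the largest of the 17 (95% interval 0.032 to 1.12, SE 0.233, edgeR unadjusted p = 0.0407, adjusted p = 0.356).

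The other 4 complex I genes had intervals that included 0. mt-Nd4, a proton-pumping subunit, stood at 2225 ± 534 CPM in ANKO mice and 2204 ± 450 in controls (log2 fold change 0.014, 95% interval -0.47 to 0.50), and mt-Nd4l, whose reading frame overlaps its start, at 54.9 ± 13.6 and 48.7 ± 12.2 (0.17, -0.38 to 0.73). mt-Nd5, the pumping subunit at the far end of the arm, stood at 4564 ± 1022 and 4268 ± 693 CPM (0.097, -0.35 to 0.54). mt-Nd6, the sole protein gene on the reverse strand (chrM:13552-14070), had 461, 577 and 501 CPM in ANKO mice, against 578, 526 and 688 in controls (log2 fold change -0.22, 95% interval -0.53 to 0.091). ANKO 2 lay among the controls.

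The 6 genes of the later complexes all had intervals that included 0. mt-Cytb, the cytochrome b of complex III, had 4762, 7253 and 5740 CPM in ANKO mice, against 5897, 5655 and 7908 in controls (log2 fold change -0.13, 95% interval -0.59 to 0.33). mt-Co1, the catalytic subunit of complex IV, had 8483, 10990 and 9413 CPM in ANKO mice, against 8548, 9263 and 12670 in controls (-0.078, -0.51 to 0.35). Both were among the most abundant transcripts and their groups overlapped throughout. mt-Co2, which takes up electrons from cytochrome c, stood at 191 ± 48.9 CPM in ANKO mice and 167 ± 54.7 in controls (0.20, -0.48 to 0.87), and mt-Co3, a non-catalytic core subunit, at 169 ± 45.1 and 152 ± 47.3 (0.15, -0.51 to 0.82). For the ATP synthase, mt-Atp6, which forms part of the proton path, stood at 198 ± 46.8 and 169 ± 59.9 CPM (0.23, -0.46 to 0.91), and the small subunit mt-Atp8 at 31.3 ± 7.32 and 27.7 ± 5.79 (0.18, -0.31 to 0.66). Adjusted p-values of the 10 protein genes without an unadjusted p under 0.05 ran between 0.576 and 0.989. For every protein gene the upper bound allowed a rise, of at most 2.18-fold for mt-Nd3, so the misses do not show equal levels.

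**Figure D1:**
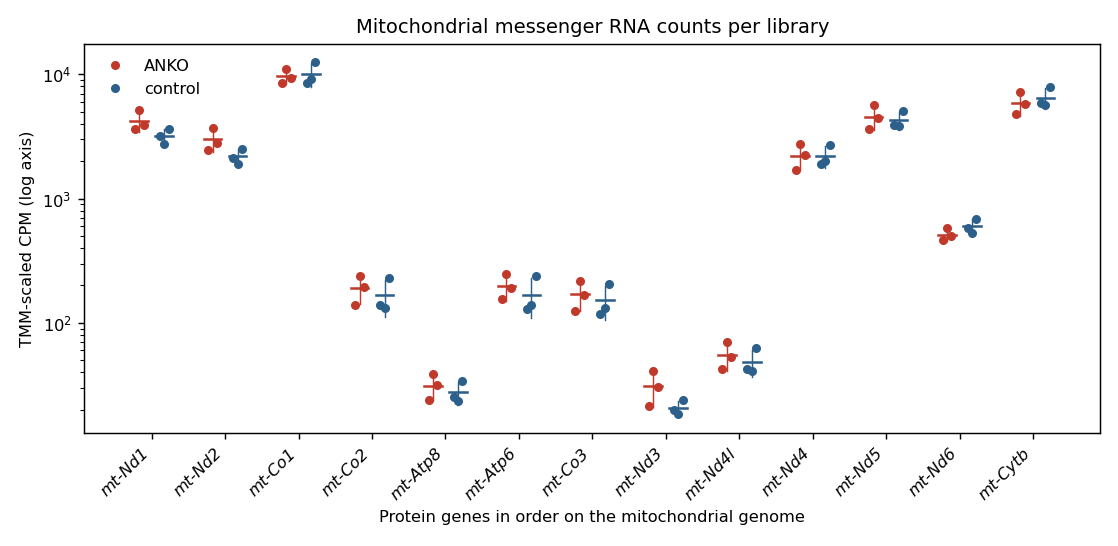
TMM-scaled CPM (log axis) of the 13 protein genes in genome order, with 1 point per library, the group mean as a horizontal line and 1 SD as a vertical line, ANKO left of control. Groups overlap for every gene, and ANKO 2 and control 3 are the highest libraries of their groups in all 13 genes.

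**Figure D2:**
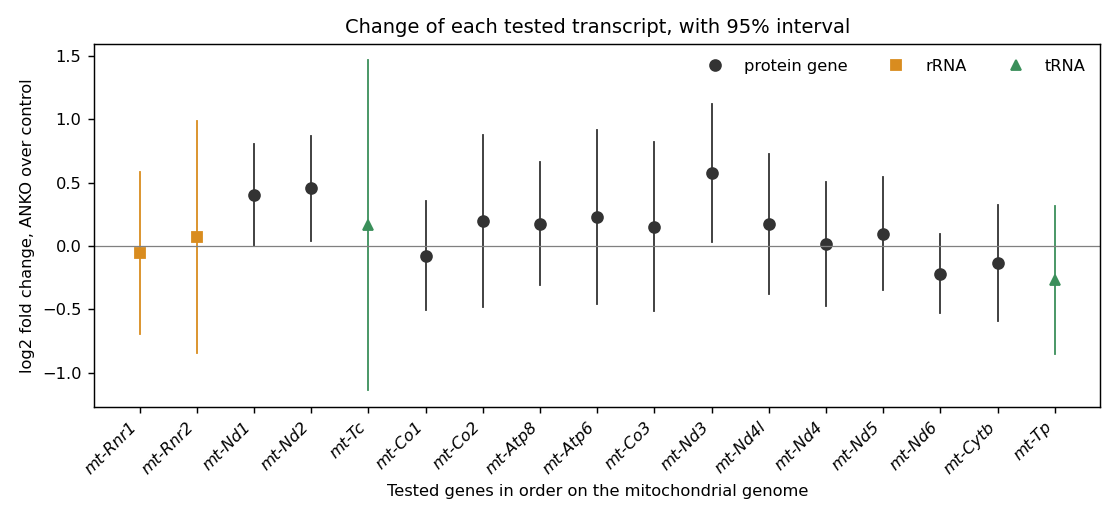
Log2 fold change of ANKO over control for the 17 tested transcripts in genome order, with 95% intervals from the quasi-likelihood fit. Only the intervals of mt-Nd1, mt-Nd2 and mt-Nd3 lie above 0, and mt-Tc, with few counts, has the widest.

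Libraries moved together across these genes. ANKO 2 had the highest and ANKO 1 the lowest CPM of the ANKO libraries for each of the 13 protein genes, and control 3 was the highest control for each of them. Per kilobase of gene, mt-Co1 stood highest, with 6232 CPM per kilobase in ANKO mice and 6577 in controls, then mt-Cytb with 5173 and 5670, and mt-Nd1 with 4424 and 3349. The order of mt-Nd2 and mt-Nd5 differed between groups: mt-Nd2 had 2886 CPM per kilobase and mt-Nd5 2502 in ANKO mice, while in controls mt-Nd2 had 2108 and mt-Nd5 2340. Within each library the ratio of mt-Nd2 to mt-Nd5 per base was 1.20, 1.15 and 1.115 in ANKO mice, against 0.965, 0.871 and 0.874 in controls, without overlap. This ratio was not planned and was taken up because the group means had crossed, so it describes the same counts again. mt-Nd4 had 1615 and 1599, and mt-Nd6 988 and 1150. The other 6 genes lay far lower. mt-Atp6 had 291 and 248 CPM per kilobase, mt-Co2 280 and 244, mt-Co3 216 and 194, mt-Nd4l 185 and 164, mt-Atp8 153 and 136, and mt-Nd3 89.1 and 59.7. Heavy-strand protein genes thus differed by over an order of magnitude in counted reads per length. These are counts per gene and need not be levels of separate messenger RNAs, since mt-Nd4l overlaps mt-Nd4 and mt-Atp8 overlaps mt-Atp6.

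These 6 low genes lie next to each other in the genome, and their stretch has a near-identical copy on chromosome 1, a piece of mitochondrial DNA carried in the nuclear genome. The copies matter for the measurement because a read that matches both places cannot be assigned from its letters. Cutting each gene into overlapping 31-base words showed that 98.1% to 100% of the words of mt-Co2, mt-Atp6, mt-Co3, mt-Nd3 and mt-Nd4l also occur in annotated nuclear transcripts. The same share was 63.9% for mt-Co1 and 62.8% for mt-Nd4, 16.8% for mt-Nd5, 13.5% for mt-Nd2, 7.36% for mt-Nd6, 6.55% for mt-Cytb and 0% for mt-Nd1. Group mean levels of the 5 genes with at least 90% shared words were 89.1 to 291 CPM per kilobase in ANKO mice and 59.7 to 248 in controls. Those of mt-Nd1, mt-Nd2, mt-Nd5, mt-Nd6 and mt-Cytb, all under 20%, were 988 to 5173 in ANKO mice and 1150 to 5670 in controls. mt-Atp8 was low with 7.47% of its words shared. It overlaps mt-Atp6, and its place in the chromosome 1 block is a gap of 233 bases between annotated copies, as long as the gap between the matching mitochondrial stretches, with no annotated feature. With the counts of the annotated copies added, per kilobase of the gene, mt-Co2 reached 790 CPM in ANKO mice and 696 in controls, mt-Atp6 759 and 666, mt-Co3 400 and 351, mt-Nd4l 290 and 269, and mt-Nd3 164 and 95.9. These sums still lay below the 5 genes with few shared words. The treatment of reads with more than 1 match is not stated in any source used here, and its part in the low levels was not tested further.

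**Figure D3:**
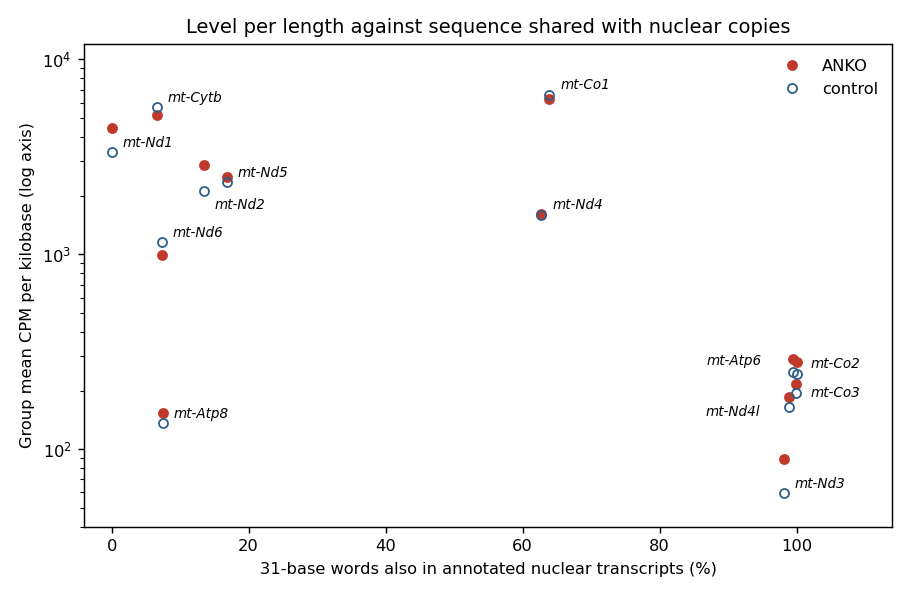
Group mean CPM per kilobase (log axis) of each protein gene against the percentage of its 31-base words that also occur in annotated nuclear transcripts, with filled points for ANKO and open points for control. The 5 genes at 98.1% to 100% lie between 59.7 and 291 CPM per kilobase, mt-Atp8 lies as low at 7.47%, and mt-Nd4 and mt-Co1 lie high at 62.8% and 63.9%.

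The chromosome 1 block spans chr1:24611535-24616197 (GRCm38, 4663 bases) and holds 7 annotated unprocessed pseudogenes on the reverse strand, in the mitochondrial gene order. Gm28661, Gm10925, Gm28437, Gm10222 and Gm28439 matched mt-Co2, mt-Atp6, mt-Co3, mt-Nd4l and mt-Nd4 at 100% of their bases. Gm29216 matched mt-Co1 at 99.8% and Gm28438 matched mt-Nd3 at 99.7%, each with 1 differing base. Copies on chromosome 2 matched less well, with Gm13340 at 97.6% over the whole length of mt-Co1. The letters show how far reads can be told apart. The opening 60 bases of mt-Co2 and of its copy are the same, as annotated transcripts of GENCODE M21 give them:
mt-Co2, chrM:7013-7072, forward strand: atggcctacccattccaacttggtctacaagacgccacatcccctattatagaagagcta
Gm28661, chr1:24615506-24615565, reverse strand: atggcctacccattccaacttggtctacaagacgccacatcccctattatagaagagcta
A stretch of mt-Co1 differs from 2 of its copies by 1 base each, shown in capitals, which is A1066T in Gm29216 and T1072C in Gm13340, counted from 1 at the first base of mt-Co1:
mt-Co1, chrM:6390-6449, forward strand: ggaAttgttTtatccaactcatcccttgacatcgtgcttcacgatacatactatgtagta
Gm29216, chr1:24616129-24616188, reverse strand: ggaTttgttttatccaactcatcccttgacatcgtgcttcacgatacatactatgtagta
Gm13340, chr2:22588526-22588585, reverse strand: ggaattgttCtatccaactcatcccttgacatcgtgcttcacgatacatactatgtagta
The start of mt-Nd3 differs from its copy by T3C, again in capitals and counted from the first base of mt-Nd3, and no other aligned base differs:
mt-Nd3, chrM:9459-9518, forward strand: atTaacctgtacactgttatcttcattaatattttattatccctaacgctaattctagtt
Gm28438, chr1:24613060-24613119, reverse strand: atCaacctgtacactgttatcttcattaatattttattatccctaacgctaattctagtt

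Of 18 nuclear features that share at least 5 words with a mitochondrial gene, 16 were in the table and had a mean count of at least 10. Summed, they raised the share of counts assigned to mitochondrial sequence to 2.78%, 3.89% and 3.38% in ANKO mice and 2.88%, 2.90% and 3.73% in controls. Nearly full-length copies with no differing base had counts of the same order as their gene: the ratio of copy to gene was 1.09 for Gm28661 over mt-Co2, 1.65 for Gm10925 over mt-Atp6, 0.828 for Gm28437 over mt-Co3 and 0.601 for Gm10222 over mt-Nd4l. It was 0.0781 for Gm28439 over mt-Nd4 and 0.0256 for Gm29216 over mt-Co1, which copy only a part of their genes, and 0.0505 for Gm13340 over mt-Co1, which has 37 differing bases. A high ratio did not need a perfect copy: Gm13341 on chromosome 2, with 16 bases different from mt-Co2, had a ratio of 0.750 (0.683 to 0.806 over the libraries), and its levels were 139 ± 34.8 CPM in ANKO mice and 127 ± 31.9 in controls. Gm28661 had 153, 261 and 217 CPM in ANKO mice, against 149, 143 and 255 in controls, with ANKO 2 and control 3 highest as for mt-Co2.

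No copy was called by edgeR, and 1 of the 16 had groups that did not overlap, against 19.4% of all features. This was Gm28438, the copy of mt-Nd3, with 20.3, 28.0 and 29.7 CPM in ANKO mice, against 12.3, 9.02 and 16.4 in controls. Its log2 fold change was 1.05 (SE 0.237, edgeR unadjusted p = 0.00253, adjusted p = 0.0942), and DESeq2 called it (log2 fold change 1.06, adjusted p = 0.00123). The ratio of Gm28438 to mt-Nd3 varied between 0.489 and 0.980 over the libraries. With the counts of each copy added to its gene, an alternative chosen after seeing the data, mt-Nd3 had a log2 fold change of 0.77 (SE 0.213, edgeR adjusted p = 0.168) and no mitochondrial gene was called.

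The 13 protein genes were also compared as shares of their own summed counts, which leaves out differences in total mitochondrial RNA. Together mt-Co1, mt-Cytb, mt-Nd5 and mt-Nd1 made up 78.6% to 81.4% in every library. The shares of 5 of the 13 genes did not overlap between the groups, 3 higher and 2 lower in ANKO mice. Among all features tested, scaled to the same total, 10.6% did not overlap (3.83% higher, 6.77% lower). For a nuclear feature this scaling adds the spread of total mitochondrial messenger RNA between libraries, while for the 13 genes it removes it. The 10.6% is therefore not a like baseline, and in CPM 19.4% of all features did not overlap. Shares that add to a whole depend on each other, so these 5 are not independent, and no p was computed over them.

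mt-Nd1 made up 14.1%, 14.0% and 13.2% of the mitochondrial messenger RNA counts in ANKO mice, against 12.03%, 10.5% and 10.1% in controls. mt-Nd2 made up 9.66%, 10.04% and 9.45% in ANKO mice, against 8.04%, 7.20% and 7.003% in controls. mt-Nd3 made up 0.0839%, 0.112% and 0.102%, against 0.0751%, 0.0698% and 0.0663% in controls. All 3 were higher in each ANKO library than in any control, and mt-Nd1 and mt-Nd2 are neighbours at the start of the heavy-strand order of messenger RNAs. mt-Nd1 shares no 31-base word with an annotated nuclear transcript, but copies without annotation were not searched. The part of nuclear copies in these shares was not tested.

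mt-Cytb, last in that order, made up 18.6%, 19.6% and 19.3% in ANKO mice, against 22.1%, 21.4% and 22.0% in controls. mt-Nd6 made up 1.80%, 1.56% and 1.69% in ANKO mice, against 2.17%, 1.99% and 1.91% in controls. Both shares were lower in each ANKO library than in any control. mt-Co1 made up 31.5 ± 1.70% in ANKO mice and 34.1 ± 1.74% in controls, and these overlapped, as did the shares of the other 7 genes. A fit with library size set to the summed counts of the 13 genes was also chosen after seeing the data. Its log2 fold changes were 0.34 for mt-Nd1, 0.39 for mt-Nd2, 0.49 for mt-Nd3, -0.19 for mt-Cytb and -0.27 for mt-Nd6. By edgeR none of them was called, with a smallest adjusted p of 0.789 for mt-Nd3. The SEs of the 13 genes in this fit were 0.250 to 0.266, too large to call shifts of this size, so it does not decide on the shares.

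**Figure D4:**
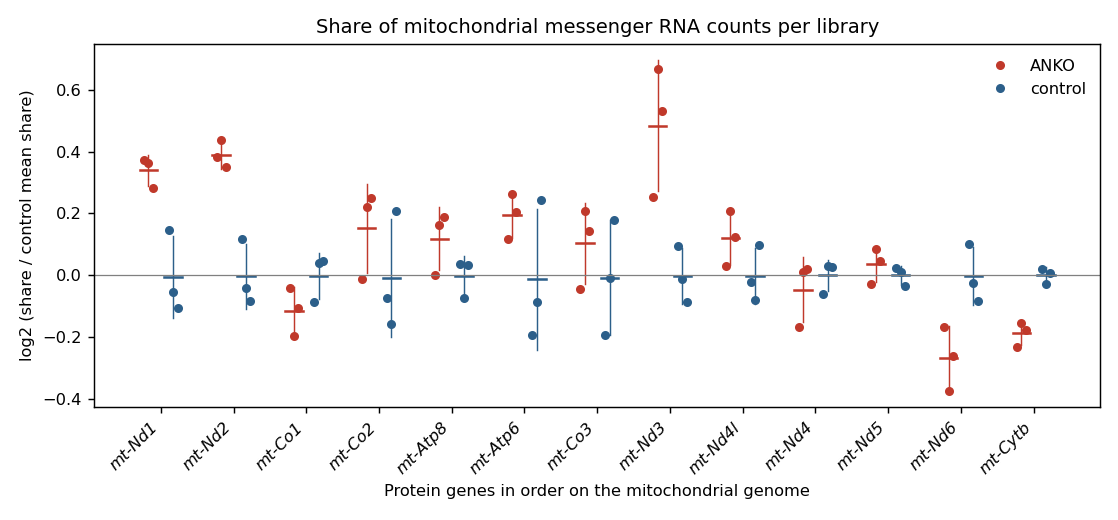
Share of each protein gene in the mitochondrial messenger RNA counts, as log2 of the share over the control mean, with 1 point per library, the group mean as a horizontal line and 1 SD as a vertical line, ANKO left of control. mt-Nd1, mt-Nd2 and mt-Nd3 lie above the controls in every ANKO library, and mt-Nd6 and mt-Cytb below them.

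Ratios between genes of the same precursor showed the same contrast without any scaling. The count of mt-Nd1 per count of mt-Cytb was 0.758, 0.712 and 0.685 in ANKO mice, against 0.543, 0.490 and 0.460 in controls, a difference of 0.53 on the log2 scale. For mt-Nd2 per mt-Cytb it was 0.507 ± 0.0158 in ANKO mice and 0.339 ± 0.0222 in controls, a log2 difference of 0.58 (SD, n = 3 each). For mt-Nd3 per mt-Cytb it was 0.0052 ± 0.0006 and 0.0032 ± 0.00019, a log2 difference of 0.67. In all 3 ratios every ANKO library lay above every control. These ratios were chosen after the shares had been seen, so they describe the same counts again.

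The light strand was represented by mt-Nd6. Its counts per count of the 12 heavy-strand protein genes were 0.0183, 0.0159 and 0.0172 in ANKO mice, against 0.0222, 0.0203 and 0.0195 in controls. The groups did not overlap and differed by -0.27 on the log2 scale, beside 19.4% of all features without overlap in CPM. The 12 genes include mt-Nd1 and mt-Nd2, whose shares were higher in ANKO mice, so this ratio alone does not show a change of mt-Nd6. Against mt-Nd5, which it meets tail to tail, mt-Nd6 stood at 0.114 ± 0.0127 in ANKO mice and 0.140 ± 0.0069 in controls, again without overlap. Against mt-Cytb the ratio was 0.0879 ± 0.0087 and 0.0926 ± 0.0055, and the groups overlapped. No source used here gives the strand setting of the counting, so reads from mt-Nd6 and from heavy-strand RNA across the same bases cannot be told apart.

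The ribosomal RNAs mt-Rnr1 and mt-Rnr2, the small and large subunit RNAs of the mitochondrial ribosome, are normally the most abundant transcripts of this genome. Here they were what remained after ribosomal RNA depletion with the Ribo-Zero Gold kit, which targets mitochondrial as well as cytoplasmic ribosomal RNA. mt-Rnr1 (chrM:70-1024) had 335, 251 and 193 CPM in ANKO mice, against 201, 353 and 256 in controls (log2 fold change -0.057, SE 0.266, edgeR adjusted p = 0.964). mt-Rnr2 (chrM:1094-2675) had 474, 337 and 225 CPM in ANKO mice, against 222, 467 and 297 in controls (log2 fold change 0.071, SE 0.371, edgeR adjusted p = 0.968). ANKO 1 and control 2 were the highest libraries of their groups for both. That differed from the messenger RNAs, for which ANKO 1 was the lowest ANKO library.

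Per kilobase the ribosomal RNAs stood at 272 CPM for mt-Rnr1 and 218 for mt-Rnr2 in ANKO mice and 283 and 208 in controls, below mt-Nd1, which follows them on the same strand. The ratio of mt-Rnr2 to mt-Rnr1 was 1.42, 1.35 and 1.17 in ANKO mice, against 1.11, 1.32 and 1.16 in controls. The groups overlapped. Gm42418, a nuclear feature at a ribosomal RNA repeat on chromosome 17, had 12101, 2967 and 2457 CPM in ANKO mice, against 3121, 6641 and 3677 in controls. It too was highest in ANKO 1 and control 2. Gm26917, another very abundant feature, had 54344, 47824 and 49836 CPM in ANKO mice, against 50449, 48966 and 45155 in controls, highest in ANKO 1 but in control 1. The part of depletion efficiency in the ribosomal RNA values was not tested.

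**Figure D5:**
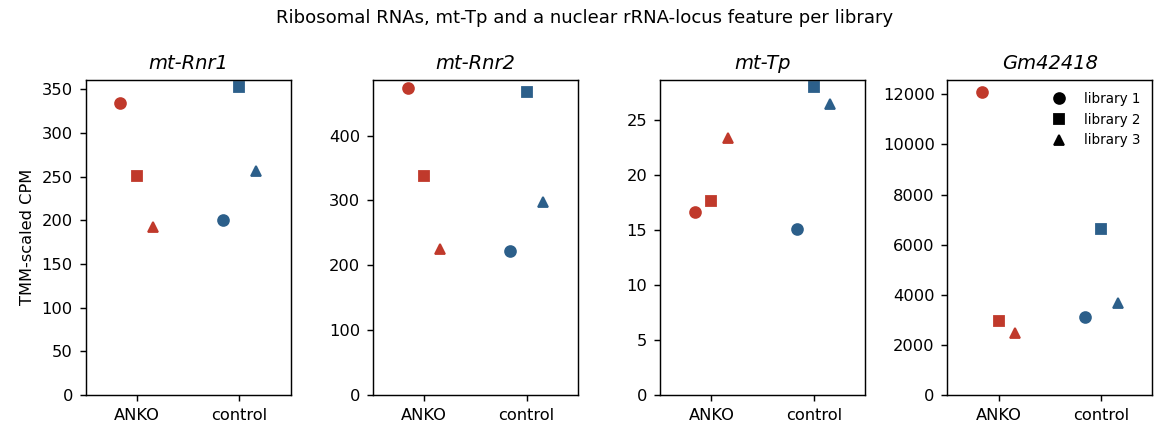
TMM-scaled CPM per library of mt-Rnr1, mt-Rnr2, mt-Tp and the nuclear ribosomal repeat feature Gm42418, each on its own axis starting at 0, ANKO left of control, with the library number as the symbol. ANKO 1 and control 2 are highest for both ribosomal RNAs and for Gm42418, and groups overlap in all 4 panels.

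Transfer RNAs carry amino acids to the mitochondrial ribosome. They are 59 to 75 bases long, a size that RNA purification columns of this kind retain poorly. The counts describe only what was retained, and the part of such loss in them was not tested. In total the transfer RNAs had 421, 447 and 529 counts in ANKO mice, against 366, 573 and 560 in controls. mt-Tp, the proline transfer RNA, supplied 91.1% to 94.9% of them in ANKO mice and 91.6% to 96.9% in controls. It is the gene nearest to the control region on the light strand and lies next to mt-Tt, the threonine transfer RNA of the opposite strand, which had 1 count in all 6 libraries. The pair is shown with mt-Tc, the cysteine transfer RNA, the other that passed the low-count filter, with the anticodon in capitals:
mt-Tp, chrM:15356-15422, reverse strand: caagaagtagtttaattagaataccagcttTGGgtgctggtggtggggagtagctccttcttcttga
mt-Tt, chrM:15289-15355, forward strand: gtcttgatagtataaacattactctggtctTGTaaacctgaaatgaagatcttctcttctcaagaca
mt-Tc, chrM:5192-5257, reverse strand: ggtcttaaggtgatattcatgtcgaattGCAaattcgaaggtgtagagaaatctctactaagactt

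mt-Tp had 395, 407 and 502 counts in ANKO mice, against 343, 555 and 513 in controls. In CPM these were 16.6, 17.6 and 23.3 in ANKO mice, against 15.02, 28.0 and 26.4 in controls, and the groups overlapped (log2 fold change -0.27, 95% interval -0.86 to 0.32, edgeR adjusted p = 0.744). Per kilobase it stood at 286 CPM in ANKO mice and 345 in controls. mt-Tc had 9, 16 and 10 counts in ANKO mice, against 7, 6 and 15 in controls (log2 fold change 0.16, SE 0.564, edgeR adjusted p = 0.95). Its 95% interval ran between -1.14 and 1.46, and at this depth neither a halving nor a doubling lay outside it.

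The other 20 transfer RNAs did not pass the filter. Of these, 13 had at least 1 count and at most 57 summed over the libraries, the most being mt-Tn, the asparagine transfer RNA. mt-Te, for glutamate, had 4, 5 and 3 counts in ANKO mice, against 3, 0 and 0 in controls, and mt-Tm, for methionine, had 1, 0 and 0 in ANKO mice, against 2, 4 and 1 in controls. Both are near the floor of 3 counts, and they lean opposite ways. The remaining 7, which are mt-Tv, mt-Td, mt-Tk, mt-Tg, mt-Tr, mt-Ts2 and mt-Tl2, had 0 counts in all 6 libraries, which allows up to 0.126 to 0.155 CPM per library. This floor covers counting error only. Counts differed by strand: the 8 light-strand transfer RNAs had 2866 counts in all, 151 of them outside mt-Tp, and each had at least 1. The 14 heavy-strand ones had 30 counts in all and included the 7 at 0. Place on the genome differed too: mt-Tp lies next to the control region, and mt-Tn and mt-Tc flank a stretch without an annotated gene. mt-Tf, on the other side of the control region, had 7 counts, and mt-Tv, between mt-Rnr1 and mt-Rnr2, had 0. The part of neighbouring genes in these counts was not tested. Light-strand transfer RNAs lie opposite heavy-strand precursor RNA, and without the strand setting reads from either strand cannot be told apart.

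The nuclear genes that copy, transcribe, cut and modify these RNAs were examined as a list of 65, of which 63 were found and tested. By edgeR 0 rose and 0 fell, against 0.488% and 1.1% of all features. At an unadjusted p under 0.05 edgeR gave 5 of the 63 (2 higher, 3 lower), against 12.9% of all features. At an adjusted p under 0.05 DESeq2 called 2 of the 63, against 886 of all 19272 features. There limma-voom called 0, against 230 of all features. The list's median log2 fold change was -0.05, against 0.00068 for all features, and 15 of the 63 had groups that did not overlap, against 19.4% of all features. The polymerase and its partners had closely matched means. Polrmt, the mitochondrial RNA polymerase, stood at 43.9 ± 3.02 CPM in ANKO mice and 44.8 ± 2.68 in controls (log2 fold change -0.029). Tfam, which packs mitochondrial DNA and starts transcription, stood at 23.8 ± 1.34 and 22.2 ± 0.951 (0.099), and Tfb2m, which opens the promoter, at 16.6 ± 2.83 and 17.3 ± 2.09 (-0.058). Lrpprc and Slirp, a pair that binds and stabilises mitochondrial messenger RNAs, stood at 79.7 ± 1.21 CPM in ANKO mice and 76.6 ± 6.46 in controls, and at 7.60 ± 1.23 and 7.28 ± 0.463. Adjusted p-values of these 5 by edgeR were between 0.765 and 0.942.

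The 3 list members with the smallest p had groups that did not overlap, but edgeR called none of them. Hsd17b10, a dehydrogenase that is also a subunit of the mitochondrial RNase P, which cuts the 5′ ends of transfer RNAs, had 27.4, 26.9 and 27.3 CPM in ANKO mice, against 33.3, 45.2 and 49.9 in controls (log2 fold change -0.65, SE 0.146, edgeR adjusted p = 0.0839). Ssbp1, which coats single-stranded mitochondrial DNA during replication, had 14.2, 13.3 and 13.3 CPM in ANKO mice, against 20.7, 17.3 and 20.1 in controls (-0.51, SE 0.119, edgeR adjusted p = 0.0975). These were the pair that DESeq2 called, with adjusted p = 0.00863 for Hsd17b10 and 0.0218 for Ssbp1. Lonp1, the matrix protease that also degrades Tfam, had 120, 159 and 129 CPM in ANKO mice, against 91.2, 107 and 109 in controls (0.41, SE 0.125, edgeR adjusted p = 0.196). Macrophage markers took 0.0646% to 0.0849% of counts in ANKO mice and 0.0468% to 0.0559% in controls, with 1 of 6 higher, and mast cell markers 0.0065% to 0.0072% and 0.0023% to 0.0032%, with 4 of 4 higher. Endothelial markers took 0.0496% to 0.0538% in ANKO mice and 0.0567% to 0.0674% in controls, also without overlap, with 0 of 4 called. The part of these cell types in the values above was not tested. Brown and beige adipocyte markers took 0.0057% to 0.0085% in ANKO mice and 0.0048% to 0.0086% in controls, with overlap and with 1 of 7 higher. Beside these marker counts, 0.488% of all features were called higher and 1.1% lower, and 19.4% of single features had groups that did not overlap.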

How the data were processed

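Per the labels' protocols, RNA from frozen tissue was isolated with Qiazol on RNeasy columns and ribosomal RNA was removed with Ribo-Zero Gold. The authors deposited raw read counts per gene symbol. STAR 2.0.4b, featureCounts 1.45 and Subread are named for build GRCm38, per the submitters' processing notes. No source used here gives the annotation release, the strand setting or the treatment of reads with several matches. Of 40757 lines, 329 exact repeats were dropped, none of them mitochondrial. Counts were tested with edgeR 4.0.16 (R 4.3.3): filterByExpr (minimum count 10, total 15), TMM, robust quasi-likelihood F test, Benjamini-Hochberg over 19272 features, threshold 0.05. DESeq2 1.42.0, limma-voom (limma 3.58.1), other scalings and filters, a muscle covariate, a replicate block and leaving out each library were alternatives. The steps were tested on simulated data. Pairs of libraries differed beyond sampling noise (chi-square per degree of freedom 30.6 to 87.8), and p-values measure only the spread between these 6 mice. Positions, copies and sequences came from GENCODE M21 transcripts (GRCm38), and copies share at least 5 words of 31 bases. Named were Nampt, the protein genes, ribosomal RNAs and tested transfer RNAs, nuclear copies with a mean count of at least 10, and from the machinery list called members or the 3 with the smallest p plus Polrmt, Tfam, Tfb2m, Lrpprc and Slirp. Members and lists were chosen with earlier results of these data known. Gm42418, Gm26917, mt-Te and mt-Tm were named after their values were seen. Intervals on log2 fold changes are 95% intervals from the fit.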

Additional observations from a re-analysis of the deposited data

How the results depend on the processing

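No mitochondrial transcript was called under any alternative run. Of 271 values of these genes under the alternatives, leaving aside those added after seeing the data, 251 kept their direction and their side of the threshold, 20 changed sign and 0 crossed the threshold. The smallest adjusted p was 0.1, for mt-Nd3 without ANKO 1. mt-Nd1, mt-Nd2 and mt-Nd3 had no unadjusted p under 0.05 without ANKO 2, ANKO 3, control 1 or control 2, with the replicate block or with the muscle covariate. All 3 stayed under 0.05 without ANKO 1 and without control 3. Without control 3, mt-Co2 (edgeR unadjusted p = 0.0481, adjusted p = 0.466) and mt-Atp6 (0.0193 and 0.341) joined them. Leaving out each library in turn gave log2 fold changes of 0.23 to 0.52 for mt-Nd1, 0.27 to 0.59 for mt-Nd2 and 0.32 to 0.80 for mt-Nd3, 0.0089 to 0.51 for mt-Co2, 0.034 to 0.57 for mt-Atp6, -0.31 to -0.093 for mt-Nd6 and -0.50 to -0.11 for mt-Tp (edgeR unadjusted p = 0.022, adjusted p = 0.307 without control 1). Ranges that included both signs were -0.19 to 0.12 for mt-Co1, -0.00090 to 0.37 for mt-Atp8, -0.061 to 0.45 for mt-Co3, -0.031 to 0.41 for mt-Nd4l, -0.17 to 0.21 for mt-Nd4, -0.086 to 0.26 for mt-Nd5, -0.30 to 0.047 for mt-Cytb, -0.27 to 0.18 for mt-Rnr1, -0.21 to 0.41 for mt-Rnr2, -0.12 to 0.75 for mt-Tc, -0.070 to 0.027 for Polrmt, -0.21 to 0.038 for Tfb2m and -0.066 to 0.19 for Slirp. mt-Nd4 also changed sign with the muscle covariate (-0.0081) and with scaling to mitochondrial messenger RNA (-0.044), an alternative chosen after seeing the data. The difference in mitochondrial share ran between -0.085 and 0.42 percentage points over all 37 genes, -0.088 and 0.43 for protein genes, -0.0087 and 0.013 for ribosomal RNAs and -0.00075 and -0.00011 for transfer RNAs. The log2 ratio of mt-Nd6 to the heavy-strand messenger RNAs differed by -0.32 to -0.22 with 1 library left out and by -0.079 with mt-Cytb alone below it. Over all features, 306 were called, against 886 by DESeq2 (56.2% lower, against 69.3%), 464 without a low-count filter, 162 with the muscle covariate and 75 to 256 with 1 library left out, 75 being without ANKO 3. The direction of calls also moved: without ANKO 1, 107 were higher and 93 lower, and without control 1, 86.3% were lower. The machinery list had 2 calls by DESeq2, 1 without the filter and 0 to 1 with 1 library left out (Hsd17b10 without control 1, adjusted p = 0.018). Same-numbered mice did not deviate together (correlations 0.0746, -0.0333 and -0.0435), so the numbers only name libraries. The replicate block called 207 features and 0 mitochondrial genes. Gm28438 stood at 0.85 to 1.30 with 1 library left out. mt-Tc has no value under the filter of 1 CPM. The causes were not tested.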
